A study of Stenocereus queretaroensis with 6 samples.

Results

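Transcripts for U-box and RING-H2 ubiquitin ligases and for the enzymes and modifiers of ubiquitin and SUMO conjugation were followed in cultured suspension cells of the columnar cactus *Stenocereus queretaroensis*. A member was an assembled transcript cluster whose best Swiss-Prot protein hit carried a description matching U-box domain-containing, RING-H2, ubiquitin-conjugating enzyme, polyubiquitin, SUMO-conjugating, small ubiquitin or ubiquitin-activating. The rule found 615 of the 170970 clusters in the table, on 129 distinct Swiss-Prot proteins, called hits here. They fell into 7 families, with 259 clusters on U-box proteins, 84 on RING-H2 finger proteins, 201 on E2 ubiquitin-conjugating enzymes, 33 on polyubiquitin, 14 on SUMO-conjugating E2 enzymes, 12 on SUMO and 12 on the E1 ubiquitin-activating enzyme.

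The cells grew in liquid MS medium, a mineral medium for plant tissue culture, that held 3% sucrose for 3 libraries and 8% sucrose for the other 3. No genotype, clone, culture age or time on the medium is given in the labels, which also leave unstated whether each library had a culture of its own. A p-value therefore measures only how far these samples differ among themselves, and that spread may be technical. Poly(A) RNA was sequenced as read pairs, and each library held 35476032 to 41147265 expected counts (read numbers estimated per cluster).

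Ubiquitin is a small protein that cells attach to other proteins, often to mark them for the proteasome. An E1 enzyme activates it, an E2 enzyme carries it, and an E3 ligase selects the protein that receives it. U-box and RING-H2 proteins are E3 ligases that bind a loaded E2, and plants encode many of each. Several U-box ligases (PUB proteins) and membrane-bound RING-H2 ligases of the ATL family act in defence, abscisic acid and sugar or carbon responses in Arabidopsis. SUMO is a related modifier with an E1, E2 and ligases of its own.

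Levels are given as CPM (counts relative to the scaled size of each library), for a cluster or summed over all clusters of a hit, as mean ± SD with n = 3 per medium. CPM do not correct for length, so they compare libraries and not genes. Differences are log2 fold changes of 8% over 3% sucrose with their SE, from edgeR's quasi-likelihood test fitted on all clusters or all hits, and rose or fell means a Benjamini-Hochberg adjusted p under 0.05. Names are those of the closest Swiss-Prot protein, an Arabidopsis protein for 108 of the 129 hits, and do not establish that a cactus gene is its ortholog. Of the members 614 had a named organism for their best NR protein hit, all plants or green algae, sugar beet in 362 of them. In whole suspension cells fewer cells making a transcript and less of it per cell cannot be told apart. No marker gene defines suspension cells. PCNA, a DNA replication factor used as a sign of dividing cells, stood at 39.8 ± 2.29 CPM at 3% and 40.9 ± 2.88 CPM at 8% sucrose. Levels of B-type cyclins and of a histone, also planned as such signs, are not given here. PCNA alone does not establish equal division in both media.

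The media separated along the first principal component of the tested clusters, which held 83.9% of the variance. The second component held 4.87% and placed replicate 1 of both media on its positive side, at 62.6 and 69.5, with the other 4 libraries below 0. The share of counts on clusters with ribosomal RNA-like annotation was 1.39% ± 0.0941 at 3% and 0.717% ± 0.275 at 8% sucrose, and its part in the differences was not tested. Members took 0.826% to 0.883% of the counts at 3% and 0.972% to 1.04% at 8% sucrose.

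Members changed in both directions. Of 119 hits tested, 48 rose, against 29.9% of all 13183 tested hits, and 50 fell, against 50.2% of all. A further 21 did not pass, and 10 had too few counts to test. Changes of at least 2-fold were called upward for 33 hits and downward for 19, where 17.3% and 27.7% of all tested hits were called. The libraries of the media did not overlap for 50 hits that were higher at 8%, where 30.7% of all hits were so separated, and for 52 that were lower, where 51.8% of all were. The median log2 fold change was -0.04 over member hits and -0.32 over all hits.

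By cluster the edgeR calls were closer to those of the whole table. Of 463 member clusters tested, 135 rose, where 29.1% of all 85038 tested clusters did, and 111 fell, where 25.6% did. Another 217 did not pass and 152 were not tested. Of the 615 member clusters the authors' deposited table called 145 up and 112 down. Of all 161056 clusters with a q-value it called 15.7% up and 14.7% down. Members with a q-value were not counted, so no matching share of members is given. Of the 246 member clusters called here, the authors' deposited table gave 218 the same direction and 0 the opposite.

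The families differed in their counts. Of all tested hits 29.9% rose and 50.2% fell, with a median log2 fold change of -0.32. Among U-box hits 18 of 34 rose (52.9%) and 12 fell (35.3%), with a median log2 fold change of 0.48. Among RING-H2 hits 14 of 31 rose (45.2%) and 8 fell (25.8%), with a median of 0.33. Among E2 hits 9 of 34 rose (26.5%) and 22 fell (64.7%), with a median of -0.50. The single E1 hit fell. These counts describe the families, and no test was made of a family as a whole.

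**Figure D1:**
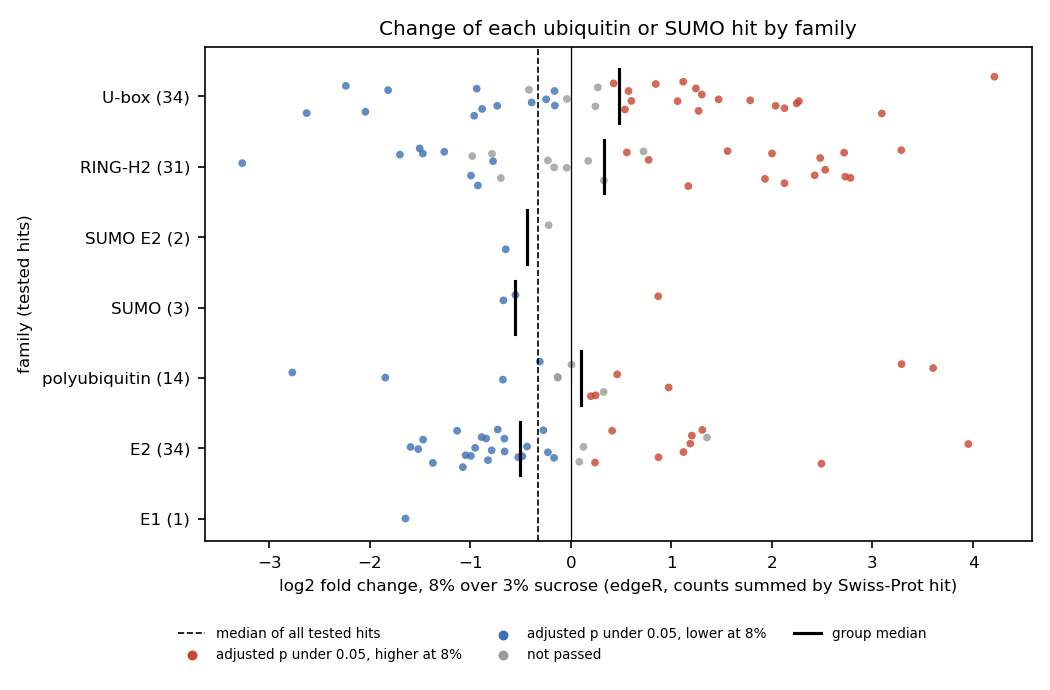
Log2 fold change of each tested hit at 8% over 3% sucrose (x axis) by family (y axis, number of tested hits in brackets). Each point is 1 hit, coloured by its edgeR call, short lines mark family medians and the dashed line marks the median of all tested hits at -0.32. The U-box and RING-H2 medians of 0.48 and 0.33 lie to the right of it and the E2 median of -0.50 to its left.

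Summed over its clusters, the U-box family held 2135, 1871 and 1813 CPM in the 3 libraries at 3% sucrose and 3237, 3103 and 2674 CPM at 8%. The RING-H2 family held 428, 331 and 322 CPM at 3% and 844, 782 and 729 CPM at 8%. In both ligase families every library at 8% stood above every library at 3%, by 1.55-fold and 2.18-fold in the means. The E2 family went from 4069 ± 104.6 to 3675 ± 57.3 CPM. Polyubiquitin, the template of the modifier itself, stood at 1908 ± 80.4 and 1848 ± 31.0 CPM, with overlapping libraries. The E1 went from 541 ± 30.4 to 172 ± 9.85 CPM, a ratio of 0.318. For polyubiquitin and SUMO the direction depended on the measure. The SUMO sum went from 98.4 ± 6.43 to 81.0 ± 2.47 CPM. By the deposited FPKM (scaled by length and library size) it went up, from 169.8 ± 11.2 to 204.3 ± 3.55. The polyubiquitin sum also went up by FPKM, from 11227 ± 661 to 13402 ± 1084. The other families kept their direction.

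**Figure D2:**
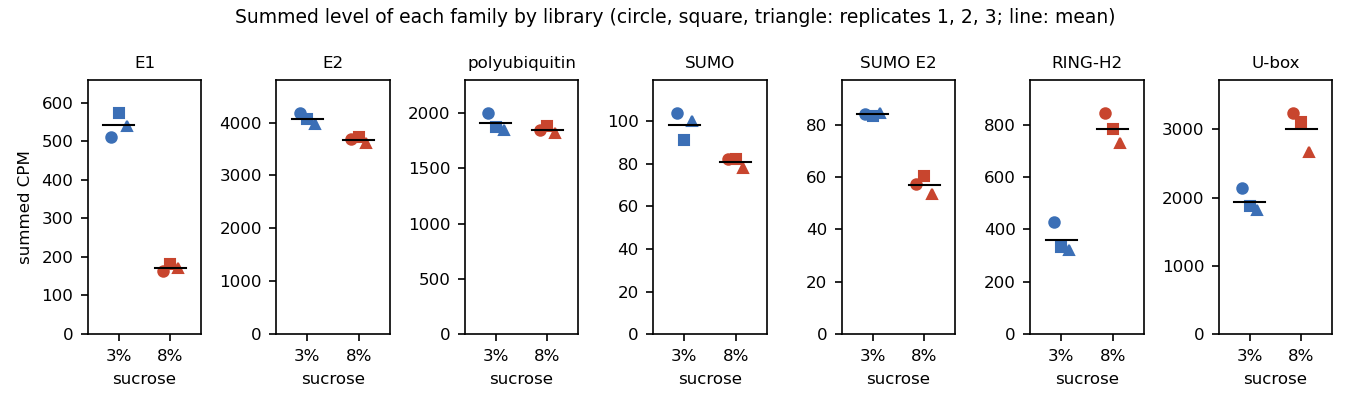
Summed CPM of each family (y axis, from 0, a separate scale per panel) in the 3 libraries at 3% and the 3 at 8% sucrose (x axis). Points are libraries, with circle, square and triangle in order of replicate number, and lines are means. By CPM, U-box and RING-H2 sums are higher at 8%, E1, E2, SUMO E2 and SUMO sums are lower, and polyubiquitin overlaps at about 1908 and 1848 CPM.

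The E1 transcript fell. UBA1 is the Arabidopsis enzyme that activates ubiquitin and feeds the whole cascade. Its 12 clusters together held 512, 573 and 539 CPM at 3% and 163, 183 and 171 CPM at 8% sucrose. The groups were far apart, with a log2 fold change of -1.65 ± 0.06 (adjusted p = 2.79e-08, edgeR). Of its 10 tested clusters 7 fell and 0 rose, and the ThiF domain typical of E1 enzymes was listed for all 12. The largest fall among them was that of Cluster-2051.118271, from 19.6 ± 5.08 to 1.91 ± 0.823 CPM.

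Of the 3 E2 hits with the most counts, UBC28 and the E2-17 kDa enzyme of tomato rose and UEV1D fell. UBC28 belongs to a broad-acting group of E2 enzymes that work with many ligases. It held 964, 932 and 910 CPM at 3% and 1244, 1252 and 1235 CPM at 8% sucrose. The log2 fold change was 0.41 ± 0.04 (adjusted p = 1.73e-05, edgeR), with 5 of its 9 tested clusters rising and 2 falling. By the deposited FPKM UBC28 did not rise, at 2980 ± 98.6 at 3% and 2915 ± 54.6 at 8%. The E2-17 kDa enzyme of tomato, of the same group, rose from 561 ± 12.1 to 663 ± 22.8 CPM, and its log2 fold change was 0.24. UBC8, a further member of that group, fell from 280 ± 14.1 to 141 ± 4.03 CPM. The coding sequences of these enzymes are alike, so reads may be divided between their clusters and the values of each single hit are uncertain.

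The hits named for enzymes that build lysine 63-linked chains split. In Arabidopsis UBC35 and UBC36 pair with a UEV1 protein, an E2 variant that lacks the catalytic cysteine, to make chains that signal instead of sending proteins to the proteasome. UBC36 held 103, 93.9 and 92.9 CPM at 3% and 207, 215 and 209 CPM at 8% sucrose, and its log2 fold change was 1.12 ± 0.06 (adjusted p = 1.52e-07, edgeR). UBC35 went the other way, from 151, 157 and 144 CPM to 112, 116 and 106 CPM, and its log2 fold change was -0.43 ± 0.06. UEV1D fell from 317 ± 12.5 to 145 ± 6.52 CPM, by 1.13 ± 0.06 on the log2 scale. So 1 hit named for a catalytic partner rose while the other and the variant fell, each with no overlap between the media. UBC35 is a single cluster here, and 1 of the 11 clusters of UBC36 held 92.1% of its counts. Best hits do not establish which partner these clusters encode, and reads may be divided between them. UEV1A and UEV1C had too few counts to test.

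The E2 enzymes anchored in the endoplasmic reticulum, which in Arabidopsis serve the degradation of misfolded proteins, also split. UBC32 held 108, 84.2 and 88.6 CPM at 3% and 212, 223 and 212 CPM at 8% sucrose, and its log2 fold change was 1.20 ± 0.09 (adjusted p = 2.12e-06, edgeR). UBC34 fell from 104.6 ± 3.78 to 56.6 ± 2.72 CPM, and its log2 fold change was -0.89 ± 0.06. UBC33 stood at 3.32 ± 0.170 and 3.52 ± 0.453 CPM and did not pass. UBC32 was thus the riser of this trio, with 5 of its 7 clusters rising and 0 falling.

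UBC19 and UBC20 are the plant relatives of the E2 that acts with the anaphase-promoting complex in mitosis. UBC19 held 58.6, 56.5 and 52.8 CPM at 3% and 19.8, 19.98 and 18.8 CPM at 8% sucrose, and its log2 fold change was -1.52 ± 0.06 (adjusted p = 3.33e-08, edgeR). UBC20 fell from 103 ± 7.84 to 39.7 ± 8.998 CPM. UBC1 and UBC2 attach ubiquitin to histone H2B in Arabidopsis. UBC1 fell from 29.3 ± 2.22 to 10.6 ± 1.24 CPM, and its log2 fold change was -1.47 ± 0.10. All 3 hits named UBC2 fell, the Arabidopsis one from 223 ± 3.50 to 142 ± 5.14 CPM, the wheat one from 57.5 ± 1.33 to 36.4 ± 1.86 CPM and the alfalfa one from 157 ± 4.83 to 74.5 ± 4.35 CPM. Within the alfalfa UBC2 hit, Cluster-2051.99813 nevertheless rose from 0.745 ± 0.386 to 6.98 ± 0.726 CPM.

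The largest fall of an E2 hit with a mean of at least 5 CPM was that of the wheat E2-23 kDa enzyme. It held 140, 138 and 136 CPM at 3% and 45.5, 46.2 and 45.6 CPM at 8% sucrose. The replicates lay within a few CPM of each other, and the log2 fold change was -1.59 ± 0.05 (adjusted p = 5.40e-09, edgeR). Its Arabidopsis relative UBC4 fell from 46.9 ± 1.35 to 32.6 ± 1.74 CPM. UBC24 (PHO2), which in Arabidopsis restrains phosphate uptake, fell from 119 ± 6.88 to 66.3 ± 5.62 CPM, and UBC23, a large E2 of the same group, fell from 120 ± 9.95 to 58.2 ± 3.57 CPM. UBC5A of rice was the smallest of the 3 largest rises among hits with such a mean, from 10.5 ± 0.804 to 19.2 ± 3.81 CPM. Its log2 fold change was 0.87 ± 0.14, but by FPKM its libraries overlapped, at 115.6 ± 8.79 and 119.6 ± 3.99.

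E2 hits could join clusters that moved apart. Of 28 E2 hits with at least 2 tested clusters, 13 had clusters called in both directions. Over all families, the E2 hits included, 22 of 83 such hits did, among them 4 of 27 U-box hits and 2 of 10 polyubiquitin hits. The share over all hits of the table was not computed, and hits with more tested clusters have more room for both calls. In UBC8, Cluster-2051.64306 fell from 48.2 ± 4.596 to 2.34 ± 0.600 CPM while another of its clusters rose. Whether such clusters are alleles, gene copies or fragments of a transcript cannot be told from the table.

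Polyubiquitin hits went in both directions around a sum of CPM that changed little. Polyubiquitin genes encode ubiquitin units in tandem that are cut apart after translation. Of 14 tested hits 6 rose (42.9%), 4 fell (28.6%) and 4 did not pass, where 29.9% of all tested hits rose and 50.2% fell. Polyubiquitin 4, the hit with the most counts, fell from 614 ± 26.2 to 496 ± 2.63 CPM, and its log2 fold change was -0.31 ± 0.05 (adjusted p = 2.92e-04, edgeR). The flax polyubiquitin fragment rose from 343 ± 6.07 to 394 ± 19.7 CPM, and its log2 fold change was 0.20 ± 0.05 with an adjusted p of 0.0068. That small rise lost its call with DESeq2 size factors (adjusted p = 0.0735) and when replicate 1 (0.0802) or replicate 3 (0.139) at 3% sucrose was left out.

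Among polyubiquitin hits with a mean of at least 5 CPM, the largest rise and the largest fall were of like size. A hit named for the *Neurospora crassa* protein, whose main cluster has tobacco as its best NR organism, held 19.9, 15.9 and 16.9 CPM at 3% and 190, 169.2 and 156 CPM at 8% sucrose. It rose by 3.29 ± 0.11 on the log2 scale (adjusted p = 8.90e-09, edgeR), almost all of it in Cluster-2051.70490, which rose from 16.9 ± 2.11 to 171 ± 17.1 CPM. The pea polyubiquitin hit held 196, 159 and 179 CPM at 3% and 29.4, 23.5 and 25.4 CPM at 8%, a log2 fold change of -2.77 ± 0.11. In it Cluster-2051.78682 fell from 84.6 ± 9.11 to 0.894 ± 0.291 CPM. Ubiquitin genes are near-identical in their repeats, so the split of reads between these hits is uncertain. The parsley polyubiquitin rose from 0.123 ± 0.0981 to 1.505 ± 0.209 CPM, 12.2-fold, and 22.6-fold without replicate 1 at 3%.

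Of the 2 hits described as SUMO-conjugating enzymes, 1 fell and the other did not pass. SCE1, the SUMO-conjugating E2 of Arabidopsis, held 68.9, 68.5 and 67.6 CPM at 3% and 44.0, 44.9 and 42.0 CPM at 8% sucrose, and its log2 fold change was -0.65 ± 0.05 (adjusted p = 2.10e-06, edgeR). Most of it was Cluster-2051.56399, which fell from 62.8 ± 1.34 to 33.5 ± 1.12 CPM. The other hit of this family, described as SUMO-conjugating enzyme UBC9, stood at 15.6 ± 1.07 and 13.4 ± 2.05 CPM and did not pass (adjusted p = 0.115), although it did without replicate 2 at 8% sucrose (0.0264). It holds 8 of the 14 clusters of the family and was placed there by its description alone, which does not establish that it carries SUMO.

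Of the SUMO modifiers themselves, SUMO2, which is conjugated under stress in Arabidopsis, fell from 45.3 ± 5.11 to 30.9 ± 1.74 CPM, and its log2 fold change was -0.55 ± 0.09 (adjusted p = 3.09e-04, edgeR). In it, Cluster-2051.87297 fell from 19.03 ± 3.39 to 3.89 ± 1.35 CPM. A hit named for the *Caenorhabditis elegans* SUMO rests on a weak alignment with an E-value of 3.9e-07, and it fell from 39.2 ± 0.659 to 24.6 ± 2.21 CPM.

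Replicate 1 at 3% sucrose stood apart for some ligases. In 9 of the 119 tested member hits, 7.56%, it exceeded 2 times the level of both other libraries at 3%, where 1.96% of all tested hits did. These were PUB21, PUB27, PUB28, ATL2, ATL8, ATL16, ATL60, ATL69 and the parsley polyubiquitin. The edgeR test called 8 of the 9 higher at 8% sucrose, and in 7 of the 9 replicate 1 was also the highest library at 8%. Ratios of the hits that rose are given with and without it.

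PUB21 carried the largest share of U-box counts and much of the rise of the family. It held 186, 24.9 and 36.3 CPM at 3% and 832, 732 and 539 CPM at 8% sucrose. Every library at 8% exceeded every library at 3%, with replicate 1 the highest of both media, and the log2 fold change was 3.09 ± 0.68 (adjusted p = 0.00254, edgeR). The ratio of means was 8.52, and 22.9 without replicate 1 at 3% sucrose. PUB28 followed the same order of libraries, with 140, 22.6 and 28.9 CPM at 3% and 339, 317 and 251 CPM at 8%, and was singled out after its values were seen. Its log2 fold change was 2.25 ± 0.61 with an adjusted p of 0.00792, and its ratio was 4.73 with all libraries and 11.8 without replicate 1 at 3%. In Arabidopsis both are U-box ligases of the type with ARM repeats.

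These 2 hits together went from 146 ± 156 to 1003 ± 194 CPM. The remaining U-box hits held 1809, 1824 and 1748 CPM at 3% and 2066, 2055 and 1883 CPM at 8% sucrose. Without PUB21 and PUB28 the family thus stood at 1793 ± 40.5 and 2001 ± 103 CPM, still without overlap. This split was chosen after the values had been seen.

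The steepest rise among U-box hits was that of PUB35, one of the ligases that join a U-box to a kinase domain. It held 1.77, 1.28 and 1.29 CPM at 3% and 27.2, 26.8 and 26.2 CPM at 8% sucrose, and its log2 fold change was 4.21 ± 0.12 (adjusted p = 5.65e-09, edgeR). Of its 15 clusters 7 rose and 0 fell. Cluster-2051.87549 had 0 counts in all libraries at 3% and 7.84, 9.65 and 0.724 CPM at 8%. Its mean at 8% was at least 73.2-fold higher when each library at 3% is set to 3 counts, which covers counting error only. Replicate 3 at 8% lay far below that mean, so the bound does not hold for each library. PUB25, which with PUB26 targets the immune kinase BIK1 in Arabidopsis, rose from 2.28 ± 0.386 to 10.96 ± 0.951 CPM, and its log2 fold change was 2.27 ± 0.15. PUB26 itself stood at 35.1 ± 3.06 and 42.2 ± 11.9 CPM and did not pass.

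Other U-box hits rose by smaller steps. PUB17, which acts in disease resistance in Arabidopsis, held 64.4, 37.4 and 36 CPM at 3% and 200, 165 and 109 CPM at 8% sucrose, and its log2 fold change was 1.78 ± 0.27 (adjusted p = 2.33e-04, edgeR). PUB14 rose from 125 ± 7.90 to 260 ± 25.99 CPM. PUB52 and PUB37 rose, from 5.75 ± 0.279 to 25.1 ± 1.31 CPM and from 4.06 ± 0.141 to 16.7 ± 0.541 CPM. PUB19, a brake on drought and abscisic acid responses in Arabidopsis, rose from 14.8 ± 5.40 to 26.5 ± 3.32 CPM, while its partner PUB18 had too few counts to test. PUB27 had overlapping libraries, with 8.24, 2.06 and 2.69 CPM at 3% and 12.7, 9.92 and 7.91 CPM at 8%, and its ratio of 2.35 became 4.29 without replicate 1 at 3%.

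The U-box hits with the most counts after PUB21 rose little and were spread over many clusters. PUB4, which in Arabidopsis acts in meristems and in immune signalling, rose from 292 ± 5.47 to 392 ± 17.8 CPM, and its log2 fold change was 0.43 ± 0.05 (adjusted p = 5.36e-05, edgeR). Of its 37 clusters 11 rose and 12 fell. PUB33 rose from 226 ± 9.67 to 329 ± 18.3 CPM, and its log2 fold change was 0.54 ± 0.06, with 7 clusters rising and 4 falling. Inside PUB33, Cluster-2051.84473 held 99.7, 103 and 99.5 CPM at 3% and 197, 225 and 228 CPM at 8%. Cluster-2051.9244 of the same hit held 34.7, 43.7 and 37.7 CPM at 3% and 1.86, 1.503 and 1.78 CPM at 8%. PUB7 rose as a sum, from 32.3 ± 1.93 to 49.0 ± 2.01 CPM. Its Cluster-2051.47207 instead went from 4.97, 12.5 and 8.94 CPM to 0 counts in all libraries at 8%. The mean of that cluster was at least 112-fold lower against 3 counts per library.

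The U-box hits that fell had varied roles. PUB13, which with PUB12 marks the flagellin receptor FLS2 for removal in Arabidopsis, held 113, 113 and 114 CPM at 3% and 28.4, 29.6 and 24.6 CPM at 8% sucrose. Its log2 fold change was -2.04 ± 0.07 (adjusted p = 1.55e-08, edgeR), with the media far apart. PUB10, which targets the jasmonate factor MYC2 in Arabidopsis, held 43.3, 42.3 and 43.6 CPM at 3% and 12.2, 12.2 and 12.3 CPM at 8%, and was the next largest fall after PUB13 among those described. PUB44 (SAUL1), which holds back early senescence in Arabidopsis, fell from 153 ± 13.7 to 82.9 ± 2.78 CPM. PUB45 and PUB30 fell most, from 17.4 ± 1.68 to 2.81 ± 0.484 CPM and from 12.4 ± 1.17 to 2.62 ± 0.355 CPM, with log2 fold changes of -2.63 ± 0.14 and -2.24 ± 0.14. PUB9 fell from 204 ± 17.5 to 107 ± 5.43 CPM with 7 of its 15 clusters falling and 0 rising, and PUB16 fell from 117 ± 11.7 to 60.3 ± 2.94 CPM.

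Around the threshold, PUB34 fell only just, with 92.9 ± 5.78 and 83.3 ± 4.67 CPM, overlapping libraries and an edgeR adjusted p of 0.0496. PUB6, PUB8, PUB26 and PUB32 did not pass. Their log2 fold changes lay between -0.42 and 0.27.

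**Figure D3:**
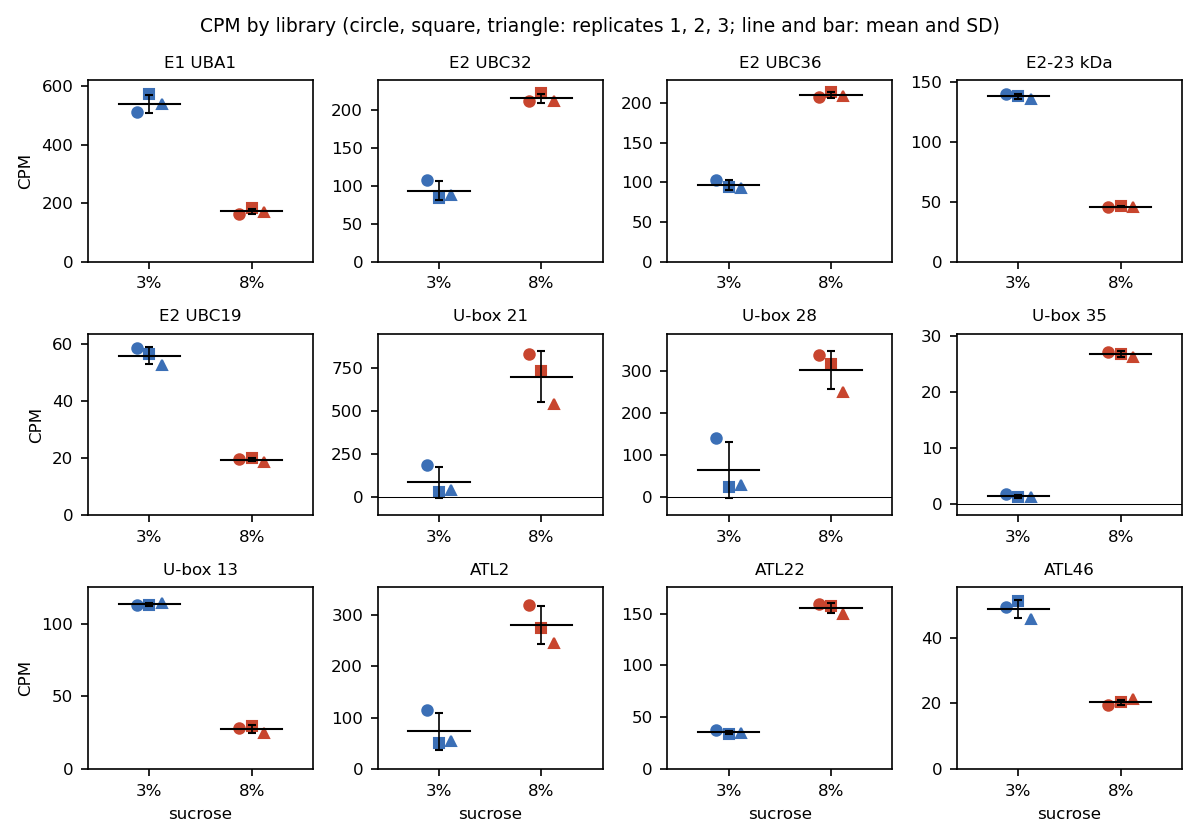
CPM (y axis, from 0 or just below, a separate scale per panel) of 12 hits in the 3 libraries at 3% and the 3 at 8% sucrose (x axis). Points are libraries, with circle, square and triangle in order of replicate number. Long lines are means and bars are SD over 3 libraries. PUB21, PUB28 and ATL2 show replicate 1 above the others at 3%, while UBA1, PUB13 and the E2-23 kDa enzyme have tight, separated groups.

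The RING-H2 family showed the strongest lean upward of the ligases by summed level, from a mean of 360 to 785 CPM. Most of that rise lay in ATL2, ATL22 and ATL60, whose means went from 73.5, 35.6 and 11.2 CPM to 280, 155 and 73.1 CPM. The rise of the sum was therefore carried mainly by these hits. By count, 14 of 31 tested RING-H2 hits rose and 8 fell, against 29.9% and 50.2% of all tested hits. ATL2, which chitin and other elicitors induce within minutes in Arabidopsis, is a single cluster here. It held 116, 51.0 and 54.0 CPM at 3% and 320, 275 and 245 CPM at 8% sucrose, and its log2 fold change was 1.93 ± 0.29 (adjusted p = 2.33e-04, edgeR). Its ratio of 3.81 was 5.33 without replicate 1 at 3%. ATL22 held 37.3, 34.3 and 35.2 CPM at 3% and 159, 157 and 150 CPM at 8%, a log2 fold change of 2.13 ± 0.06 (adjusted p = 3.43e-09). Unlike ATL2, ATL22 had replicate 1 at 3% close to the other libraries. ATL60 held 20.2, 6.09 and 7.38 CPM at 3% and 74.8, 72.2 and 72.4 CPM at 8%, a ratio of 6.53 that was 10.9 without replicate 1 at 3%.

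Further RING-H2 hits rose from low levels at 3% sucrose. ATL1, tied to cell death in Arabidopsis, held 3.56, 2.77 and 2.99 CPM at 3% and 17.4, 24.7 and 22.0 CPM at 8% sucrose, and its log2 fold change was 2.78 ± 0.16 (adjusted p = 3.02e-07, edgeR). ATL16 rose from 4.004 ± 2.25 to 22.2 ± 5.37 CPM, and its log2 fold change was 2.48 ± 0.34. Its ratio of 5.54 was 8.14 without replicate 1 at 3%. ATL78, which takes part in cold and drought responses in Arabidopsis, rose from 3.86 ± 0.131 to 20.8 ± 0.728 CPM, with 5 of its 7 clusters rising and 0 falling. Among them Cluster-2051.61435 held 0.353, 0 and 1.32 CPM at 3% and 5.33, 5.41 and 5.56 CPM at 8%. The adjusted p of that cluster was 0.0328, and the call was lost without replicate 1 at 3% (0.0897) and without replicate 1, 2 or 3 at 8% (0.0727, 0.0834 and 0.0785). Its ratio of 9.77 became 30.8 without replicate 3 at 3%. ATL69 rose from 1.26 ± 0.790 to 7.24 ± 0.294 CPM, 5.73-fold, and 8.82-fold without replicate 1 at 3%. ATL73 rose from 5.05 ± 0.619 to 20.2 ± 6.76 CPM.

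Fewer RING-H2 hits fell. ATL43, named in abscisic acid responses of Arabidopsis, is a single cluster, Cluster-22389.0, and fell from 6.70 ± 0.378 to 0.693 ± 0.146 CPM, and its log2 fold change was -3.27 ± 0.20 (adjusted p = 5.02e-07, edgeR). ATL66 fell from 15.7 ± 0.875 to 4.83 ± 0.775 CPM and ATL72 from 14.7 ± 0.435 to 5.18 ± 0.408 CPM, by 1.70 ± 0.13 and 1.503 ± 0.10 on the log2 scale. ATL46 held 49.4, 51.2 and 45.8 CPM at 3% and 19.7, 20.3 and 21.2 CPM at 8% sucrose, and its log2 fold change was -1.26 ± 0.06, with 4 of its 7 clusters falling. ATL48 fell from 25.4 ± 1.24 to 12.8 ± 1.04 CPM. ATL8, where replicate 1 at 3% stood apart, went from 1.70 ± 0.830 to 0.981 ± 0.190 CPM and did not pass. No RING-H2 hit with at least 2 tested clusters had clusters called in both directions, of 13 such hits, against 13 of 28 E2 hits. The main cluster held a median of 99.9% of the counts of a RING-H2 hit and 85.4% of those of an E2 hit. These counts are therefore not directly comparable.

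The hits were checked against the protein domains listed for the clusters. A U-box domain was listed for 119 of the 259 clusters on U-box hits, a RING domain for 69 of the 84 on RING-H2 hits and a ubiquitin domain for 30 of the 33 polyubiquitin and 10 of the 12 SUMO clusters. The conjugating domain of E2 enzymes is listed for no cluster of the table, so the E2 hits could not be checked in this way. A hit to a U-box protein alone therefore does not establish a U-box in a cluster. A listed RING domain likewise does not establish which RING-H2 protein a cluster encodes. An E-value of at most 1e-30 was reached by 22 of the 84 RING-H2 clusters, 12 of the 33 polyubiquitin clusters and 4 of the 12 SUMO clusters. Among U-box clusters 206 of 259 reached it. PUB34 had 39 clusters, all with a kinase domain and 4 with a U-box, and 11 of the 37 clusters of PUB4 had a U-box. The single cluster of PUB37 and all clusters of PUB51 and PUB52 had no U-box listed. PUB37, PUB51 and PUB52 all rose, so these rises belong to sequences for which no U-box is recorded.

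By domain, the 62 tested clusters with a U-box and ARM repeats (a protein-binding fold) had 20 that rose and 15 that fell. The 31 with a U-box and a kinase domain had 10 that rose and 4 that fell. Among 11 with a U-box alone 5 rose and 3 fell, and their sum held 367, 87.3 and 104 CPM at 3% and 1123, 1001 and 748 CPM at 8% sucrose, with the replicate 1 pattern of PUB21. Of the 41 clusters with ARM repeats and no U-box 8 rose and 15 fell, while their sum stood at 412.5 ± 12.2 CPM at 3% and 457.6 ± 31.3 CPM at 8%. In clusters with a listed U-box as a whole, 35 of 104 rose and 22 fell, against 22 and 18 of 94 without one. The shares with a U-box, 33.7% and 21.2%, are near those of all tested clusters, 29.1% and 25.6%, and no class was tested against another.

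**Figure D4:**
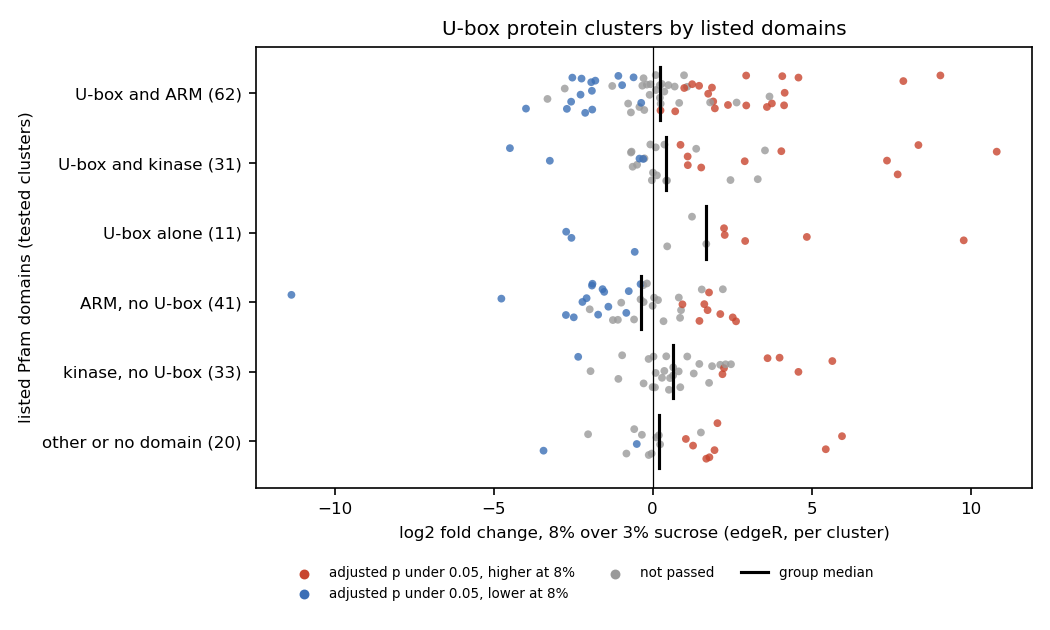
Log2 fold change of each tested U-box protein cluster at 8% over 3% sucrose (x axis) by the Pfam domains listed for it (y axis, number of tested clusters in brackets). Each point is 1 cluster, coloured by its edgeR call, and lines are medians. Clusters with a U-box alone have the highest median and those with ARM repeats and no U-box the lowest.

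Elsewhere in the pathway, lists taken from Swiss-Prot descriptions are set beside all tested hits, of which 29.9% rose and 50.2% fell. For the 26S proteasome, which degrades ubiquitin-tagged proteins, 9 of 59 tested hits rose and 39 fell, and the summed level went from 9385 ± 210 to 4849 ± 128 CPM. Its hit with the most counts, the regulatory subunit 1 homolog A, fell from 874 ± 56.8 to 308 ± 4.92 CPM. All 3 hits to ubiquitin fused to ribosomal proteins, the other source of new ubiquitin, fell, and their sum went from 363 ± 19.7 to 108 ± 1.03 CPM. Among 44 tested deubiquitinating enzymes, which take ubiquitin off again, 10 rose and 24 fell, or 54.5%, near the share of all hits. For the COP9 signalosome, which removes NEDD8 from cullins, 1 of 11 rose and 9 fell.

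Of 176 F-box proteins, the substrate receptors of SCF ligases, 64 rose and 80 fell, and of 147 other RING, HECT and RBR ligases 52 rose and 58 fell. Of 42 BTB/POZ adaptors 15 rose and 21 fell, and of 10 cullins and cullin scaffolds 3 rose and 4 fell. NEDD8 conjugation had 3 rises and 4 falls in 7 hits, the CDC48 unfoldase list 2 and 4 in 7, and the other SUMO enzymes 1 and 6 in 9. The U-box and RING-H2 shares of hits that rose, 52.9% and 45.2%, were the highest of the lists plotted, with no test of the difference.

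**Figure D5:**
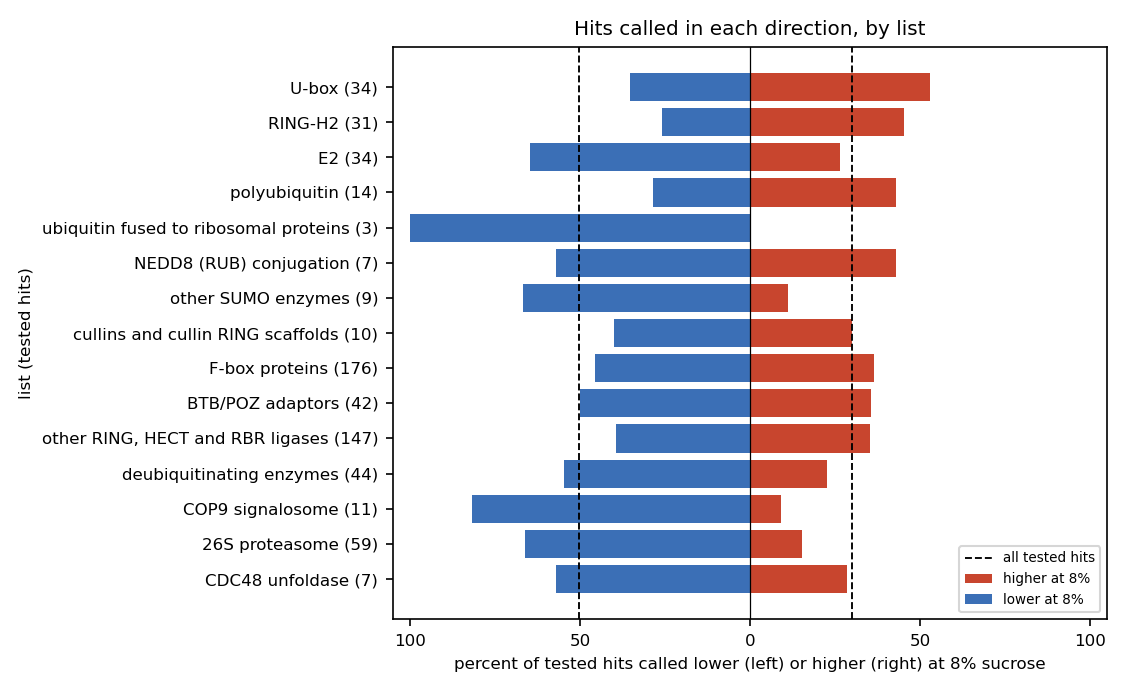
Percent of tested hits called lower (left of 0) and higher (right of 0) at 8% sucrose for 4 member families and the 11 other lists of the pathway, with the number of tested hits in brackets. Dashed lines mark all tested hits, 50.2% lower and 29.9% higher. The longest bars to the right are those of U-box and RING-H2, at 52.9% and 45.2%, but several other lists also pass the line on the right, and most lists other than the ligases pass the line on the left.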

How the data were processed

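Libraries were grouped by the growth medium in their labels, 3 per medium. The submitters' processing notes name RSEM, Bowtie2, FastQC and Trimmomatic 0.36, and the series title a de novo assembly. Not given in the sources used here are the assembler, the clustering tool, the differential test and the database versions. The authors deposited, per the file headers, an expected count per cluster and library, of which 45.4% are not whole, FPKM (scaled by length and library size), a log2 ratio with its q-value, a cluster length, and Swiss-Prot hits with an E-value and an alignment score. The deposited FPKM, log2 ratio and score entered no test, and the q-value and log2 ratio only the count of the authors' calls.

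Expected counts were rounded. The library kit does not mark strand, so antisense reads cannot be told apart. edgeR 4.0.16 in R 4.3.3 was used with filterByExpr, TMM scaling, the quasi-likelihood test and Benjamini-Hochberg adjustment over all 85038 tested clusters, or over 13183 hits after summing counts by Swiss-Prot protein with library sizes kept from the cluster fit. The SE is the size of the log2 fold change divided by the square root of the F statistic. The common biological coefficient of variation was 41.4% for clusters and 10.9% for hits. A floor of 3 counts corresponds to 0.0776 to 0.0882 CPM and covers counting error only. No libraries agreed within sampling noise.

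The members, the lists and the rule for named genes were chosen with earlier results of these data known. The rule took, per family, the hits with the most counts, the largest changes among called hits with a mean of at least 5 CPM and no overlap between media, and the largest changes among called clusters averaging at least 100 counts, again without overlap. Hits named beside these were chosen after their values were seen. The tests were checked on simulated data. Alternatives were DESeq2 1.42.0, its size factors, other filters, a replicate block, leaving out each library, an E-value limit of 1e-30 and a listed domain. No sequences were used here. A named result that the rule selects is not reported here. Figures were drawn with matplotlib 3.10.9.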

Additional observations from a re-analysis of the deposited data

How the results depend on the processing

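The counts of called members kept within 1.5 times their main values under every alternative run, apart from the stricter hits. With an E-value of at most 1e-30, 88 member clusters rose in place of 135. Requiring the listed domain, an alternative added after seeing the data, left 35 U-box clusters higher and 22 lower in place of 57 and 40, from fewer clusters. Leaving out each library in turn gave 117 to 130 clusters higher and 102 to 109 lower, 45 to 50 hits higher and 47 to 52 lower, 17 to 19 U-box hits higher and 11 to 12 lower, 13 to 14 RING-H2 hits higher and 7 to 9 lower, and 9 to 10 E2 hits higher and 20 to 22 lower. The log2 ratio of summed E2 levels, -0.15, was -0.20 with DESeq2 size factors and lay between -0.24 and -0.13 with libraries left out. That of polyubiquitin, -0.05, lay between -0.140 and -0.0277, and the cause was not tested. DESeq2 size factors moved the median of all clusters and of all hits by 0.06, so a sum or a change of that size has no firm direction. Of 516 alternative values of 47 named results 507 kept direction and call, 8 lost the call, 1 gained it and 0 reversed. The 8 are the values given for the ATL78 cluster and the flax polyubiquitin fragment.

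The media share replicate numbers in the titles, and the labels do not say whether same-numbered libraries share more than that. Deviations of same-numbered libraries correlated at 0.0711, 0.0148 and 0.0354, and replicate 2 at 3% correlated best with replicate 3 at 8%. The value for the replicates 1 was the highest of any pair, and both lay on the positive side of the second principal component. With 3 libraries per medium such values cannot settle whether the numbers mark a pairing. With a replicate block 120 member clusters rose and 100 fell, and 49 hits rose and 50 fell. The block ended the call of the ATL78 cluster (adjusted p = 0.0562, edgeR) and of no other named result. At this depth 152 clusters and 10 hits had too few counts to test.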
